A study of Mus musculus with 22 samples.

Results

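The genes described here are the colony-stimulating factor (CSF) receptors and ligands that keep microglia alive or activate them. They are the receptor genes Csf1r, Csf2ra, Csf2rb, Csf2rb2 and Csf3r and the ligand genes Csf1 and Il34. They were chosen by symbol, and all 7 were found once each among the 54532 genes of the deposited read count table. The table covers 22 RNA sequencing libraries of microglia that were sorted from mouse brains as live CD45mid, CD11b+, CD11a- cells. Library totals ran from 28676930 to 40458326 counts.

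All mice were male C57BL/6J animals, brought to an age of 17.5 months after injections that had started at 10 weeks and lasted 10 days. Gulf War (GW) mice had been given pyridostigmine bromide at 0.7 mg/kg, an acetylcholinesterase inhibitor, with permethrin at 200 mg/kg, a pyrethroid insecticide. Control (Ctrl) mice had been given vehicle. GW-CBD mice were GW mice treated late in life with cannabidiol (CBD), a non-intoxicating compound of the cannabis plant. The CBD dose was 30 mg/kg each day for 28 days and then every 2 days for 2 weeks, and all other mice were dosed with its vehicle. Lipopolysaccharide (LPS, 0.33 mg/kg), a bacterial cell wall component, or buffer (PBS) was injected 24 hours before the brains were taken. The groups were GW-CBD-LPS (n = 4), GW-CBD-PBS (n = 3), GW-LPS (n = 3), GW-PBS (n = 4), Ctrl-LPS (n = 4) and Ctrl-PBS (n = 4). Control mice with CBD were not analysed here, so CBD effects are those within GW mice. Nothing in the labels ties a library to 1 animal, and the spread that p-values measure may be technical in part.

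CSF1R is a receptor tyrosine kinase that microglia need for their survival, and CSF1 and IL-34 are its ligands. The receptor of granulocyte-macrophage CSF (GM-CSF) pairs a ligand-binding alpha chain, encoded by Csf2ra, with the common beta chain encoded by Csf2rb, which the IL-3 and IL-5 receptors share. Mice carry a second beta chain gene, Csf2rb2, whose product serves the IL-3 receptor. Csf3r encodes the receptor of granulocyte CSF (G-CSF), best known from neutrophils and their precursors. Csf2rb (GRCm38 chromosome 15, 78325752 to 78353847, plus strand) and Csf2rb2 (chromosome 15, 78282507 to 78305721, minus strand) lie 20030 bases apart with no annotated gene between them.

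The edgeR calls fell on the alpha chain gene of the GM-CSF receptor and on the beta chain genes of the GM-CSF and IL-3 receptors. With LPS, Csf2rb and Csf2rb2 rose 2.64-fold each in control mice and 2.09-fold and 2.04-fold in GW mice, and Csf2ra rose 1.87-fold in control mice. Of all genes tested, 10.8% rose with LPS in control, 4.45% in GW and 0.393% in CBD-treated GW mice in edgeR. In CBD-treated GW mice no member rose with LPS in edgeR. After LPS both beta chain genes were lower in GW-CBD-LPS than in GW-LPS libraries, a call that several single libraries decide. No member passed the interaction of GW or CBD with LPS in edgeR, so no difference in LPS response between arms was shown there. Limma voom called members for the interaction of CBD and LPS. Csf1r, Csf3r, Csf1 and Il34 passed in none of the 9 contrasts in edgeR.

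Upstream sequences are shown for 2 of the 3 genes that rose with LPS in control mice, to give the DNA next to their start sites. They are the 250 bases before the start in RefSeq on GRCm38.p6, read 5′ to 3′ on the gene's strand, and 4 of the 7 members matched that promoter table. Capitals mark every match, on either strand, to GAGGAA (the core bound by PU.1, a myeloid transcription factor), TTCNNNGAA (the STAT site), to an interferon response element or an NF-kB pattern. The windows are chr19:61228419-61228668 on the minus strand for Csf2ra and chr15:78305722-78305971 on the minus strand for Csf2rb2.
Csf2ra: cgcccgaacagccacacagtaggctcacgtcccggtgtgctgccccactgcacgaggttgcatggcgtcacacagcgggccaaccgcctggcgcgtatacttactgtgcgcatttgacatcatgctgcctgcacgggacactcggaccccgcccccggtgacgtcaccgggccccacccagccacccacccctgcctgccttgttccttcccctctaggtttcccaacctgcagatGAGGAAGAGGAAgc
Csf2rb2: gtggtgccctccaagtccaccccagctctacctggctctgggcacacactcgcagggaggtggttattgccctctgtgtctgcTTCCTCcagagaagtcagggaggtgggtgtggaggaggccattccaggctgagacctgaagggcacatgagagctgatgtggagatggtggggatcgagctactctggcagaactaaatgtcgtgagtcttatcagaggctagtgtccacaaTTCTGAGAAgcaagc

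In Csf2ra the PU.1 core occurred as 2 adjoining matches just before the RefSeq start. The Csf2ra gene coordinates given below, from another annotation, reach 61228429, so the last bases of this window lie inside that gene. In Csf2rb2 it occurred once, on the opposite strand, together with 1 STAT site close to the start. Of all 32851 promoter windows of the same length, 23.2% held the PU.1 core, 7.02% the STAT site, 2.98% the interferon element and 1.41% the NF-kB pattern. In neither window did the interferon element or the NF-kB pattern match. Among the matched members not shown, which did not pass with LPS in edgeR, Csf3r held the PU.1 core and Csf1 the NF-kB pattern. The matches are descriptions of these letters only.

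Levels of different genes were compared as CPM per kilobase of exon (CPM per kb). CPM are read counts scaled to library size, here with TMM factors, which correct for library composition. Csf1r stood far above the other members, at 1082 to 2338 CPM per kb over the 22 libraries. Csf3r followed at 93.8 to 205 CPM per kb and Csf2ra at 62.3 to 151 CPM per kb. Csf2rb lay at 16.7 to 62.1 CPM per kb, Csf2rb2 at 9.15 to 33.8 CPM per kb and Csf1 at 7.38 to 25.6 CPM per kb. Il34 did not exceed 0.297 CPM per kb. The libraries held abundant RNA for the CSF1 receptor, far less for its ligand CSF1, and next to none for IL-34.

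**Figure D1:**
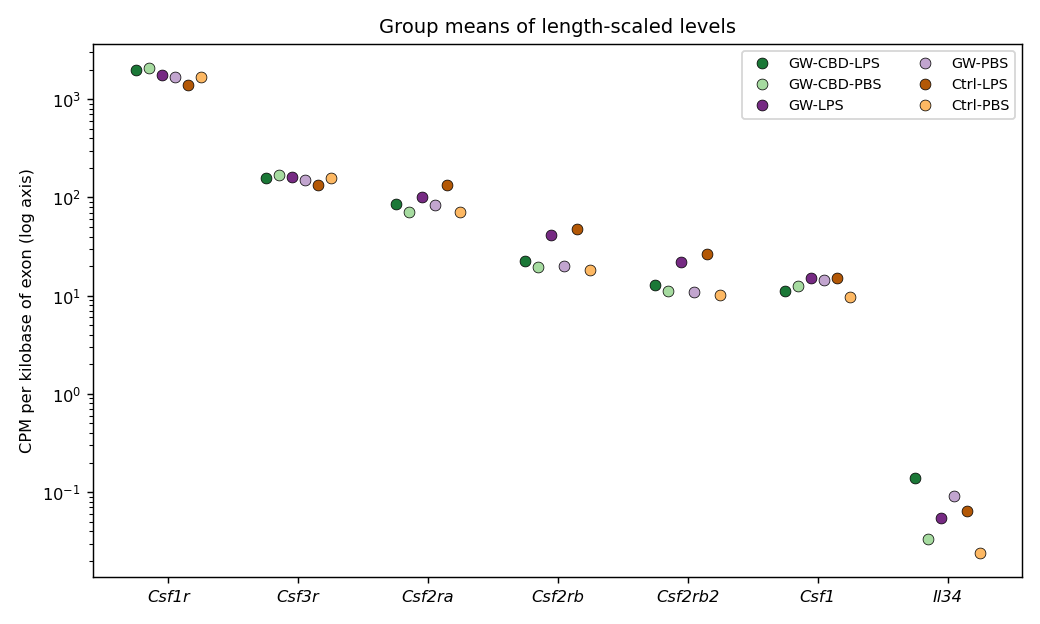
Group means of each member in CPM per kilobase of exon on a log axis, 1 point for each of the 6 groups. Csf1r lies highest and Il34 lowest in every group.

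Microglial markers led in the sorted cells. The sum of 8 microglial markers ran from 16396 to 38527 CPM (scaled to library totals) over the 22 libraries, against 16.6 to 64.9 CPM for astrocyte, 1.18 to 7.04 CPM for neuron and 12.4 to 51.5 CPM for endothelial markers. Oligodendrocyte markers summed to 123 to 473 CPM, border macrophage markers to 140 to 297 CPM, erythroid markers to 61.4 to 1568 CPM and lymphoid markers to 0.666 to 65.4 CPM. Of the libraries, 3 stood apart by their 13 neutrophil markers. These summed to 1686 CPM in replicate 1 of GW-PBS, 2816 CPM in replicate 1 of Ctrl-LPS and 27594 CPM in replicate 3 of Ctrl-PBS, and to 4.54 to 359 CPM in the rest. Monocyte markers summed to 1963 CPM in Ctrl-PBS replicate 3 and to 73.9 to 600.2 CPM elsewhere. In sorted bulk samples, fewer cells of a type and less RNA per cell cannot be told apart.

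**Figure D2:**
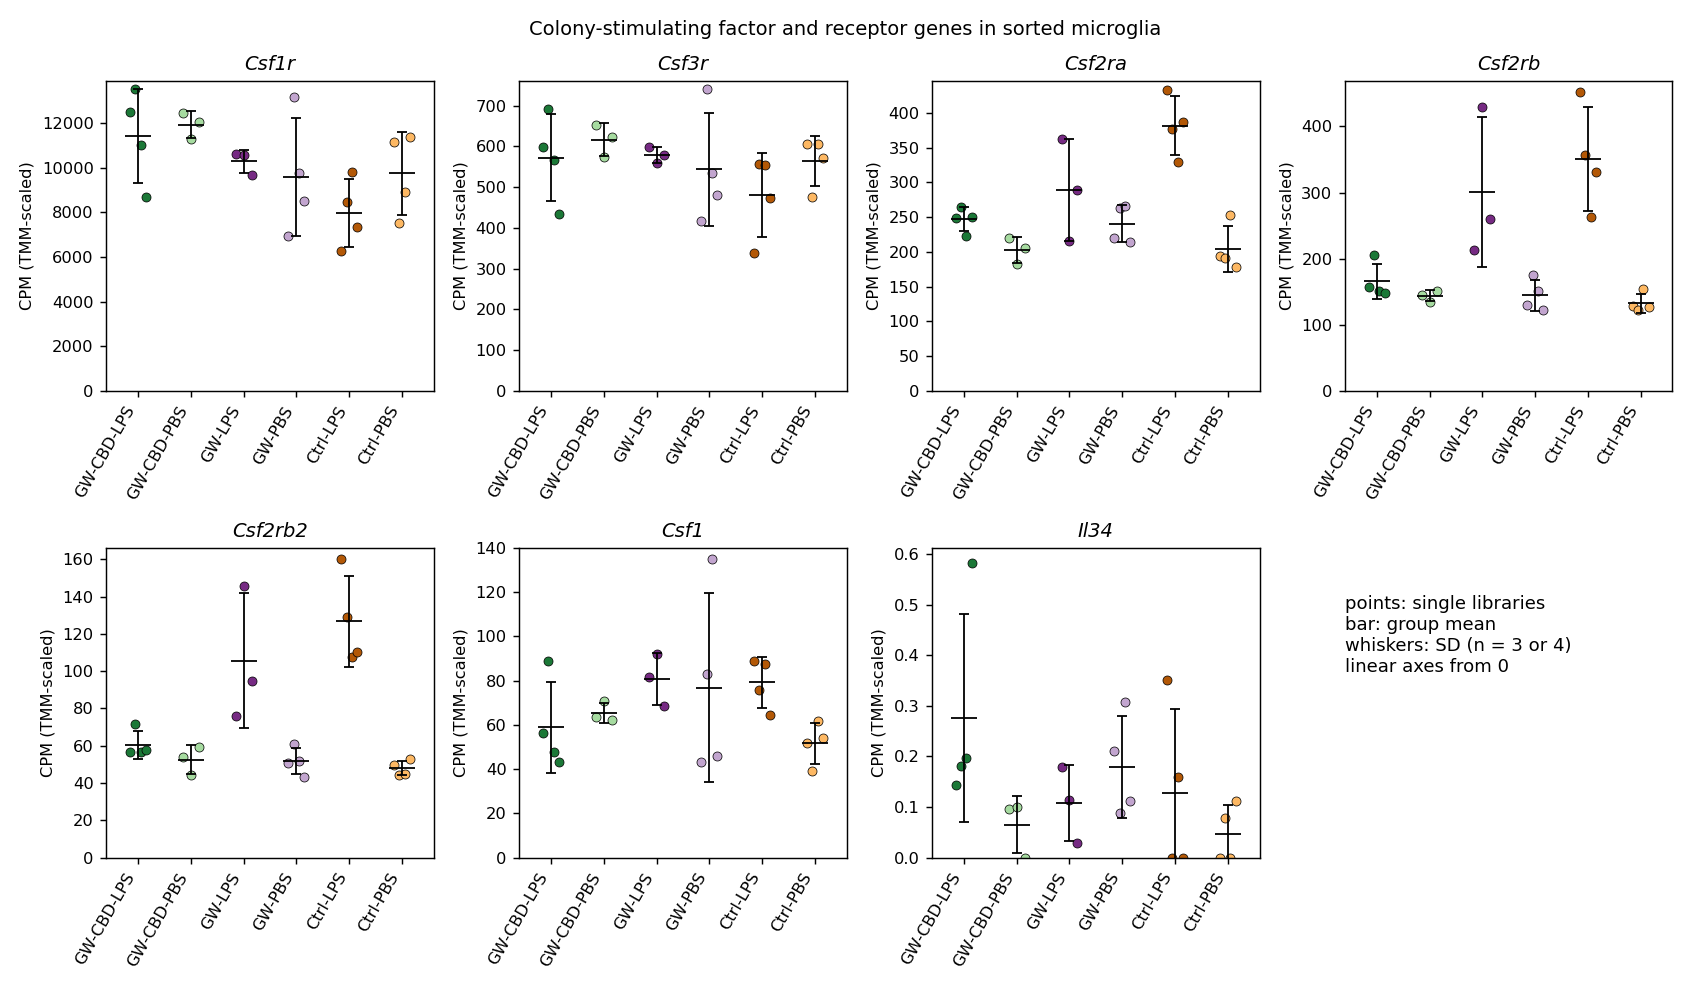
TMM-scaled CPM of each member in every library (points), with group mean and SD (n = 3 or 4), on linear axes from 0. Csf2rb and Csf2rb2 are high in the GW-LPS and Ctrl-LPS groups, Csf2ra is highest in Ctrl-LPS, and the groups of Csf1r and Csf3r overlap widely.

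Csf1r (GRCm38 chromosome 18, 61100598 to 61132149, plus strand) is the survival receptor of microglia. It had 12502, 13502, 10994 and 8681 CPM in GW-CBD-LPS, and 12436, 11264 and 12065 CPM in GW-CBD-PBS libraries. It had 10621, 10557 and 9678 CPM in GW-LPS, and 6939, 13145, 9778 and 8522 CPM in GW-PBS libraries. In control mice it had 6246, 8455, 9805 and 7322 CPM with LPS, and 11148, 7529, 8925 and 11372 CPM with PBS. All neighbouring groups in the order of the means overlapped, from GW-CBD-PBS (11921 ± 599 CPM, SD, n = 3) as the highest to Ctrl-LPS (7957 ± 1527 CPM, n = 4) as the lowest. In Ctrl-LPS libraries the level differed from that in Ctrl-PBS libraries by -0.29 ± 0.18 on the log2 scale (SE, edgeR adjusted p = 0.264). Over the 9 contrasts its log2 differences ran from -0.29 to 0.39, and the smallest edgeR adjusted p was 0.264. With limma voom and sample quality weights, LPS in control mice gave -0.42 (limma adjusted p = 0.034), so that tool called Csf1r lower there.

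Csf1 (chromosome 3, 107741048 to 107760469, minus strand), the ligand of CSF1R that glia also make, had 89.0, 75.9, 87.5 and 64.6 CPM in Ctrl-LPS, against 51.9, 38.9, 61.6 and 54.0 CPM in Ctrl-PBS libraries. These groups did not overlap, but the log2 fold change of 0.62 ± 0.28 (SE) did not pass (edgeR adjusted p = 0.125). Among all genes tested 12.2% were likewise higher without overlap in this contrast. A fit of the control groups alone gave 0.57 and called it (edgeR adjusted p = 0.0322). In GW mice Csf1 had 81.6, 91.9 and 68.5 CPM with LPS, against 43.1, 83.1, 135 and 46.1 CPM with PBS. In CBD-treated mice it had 56.2, 88.7, 47.7 and 43.4 CPM with LPS, against 63.7, 70.6 and 62.2 CPM with PBS. The groups overlapped in both. The highest Csf1 value of all libraries, 135 CPM in GW-PBS replicate 3, lay in a group given no LPS. GW-PBS differed from Ctrl-PBS libraries by 0.57 ± 0.28 on the log2 scale (SE), which did not pass in edgeR, and by 0.15 without GW-PBS replicate 3. Across the 6 groups the means ran from 80.7 ± 11.7 CPM in GW-LPS to 51.6 ± 9.4 CPM in Ctrl-PBS, and every pair of neighbours in that order overlapped.

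Il34 (chromosome 8, 110741829 to 110805924, minus strand) encodes the CSF1R ligand that neurons supply in the brain. It had 0 to 16 counts a library, 103 in all, and 5 of 22 libraries had none. A count of 0 allows up to 3 counts, or 0.0742 to 0.105 CPM depending on the library. The highest value, 0.582 CPM, stood in GW-CBD-LPS replicate 4. Il34 reached the count filter but passed no test in edgeR. Limma voom called it in 2 contrasts, LPS in GW-CBD mice and the interaction of CBD and LPS, on these few counts.

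The members were compared between LPS and PBS in each arm. Of the 7 members 3 rose and none fell with LPS in control mice, where 10.8% of all 16554 genes tested rose and 20.4% passed in either direction (edgeR, Benjamini-Hochberg adjusted p under 0.05). The median log2 fold change of the members was 0.90, against -0.02 for all genes tested. In GW mice 2 members rose and none fell, where 4.45% of all genes rose and 9.53% passed in either direction, with a median of 0.10 against -0.04 for all genes. In CBD-treated GW mice 0 of 7 passed in edgeR, with 0 at an unadjusted p under 0.05, where 0.417% of all genes passed in either direction. DESeq2 also called 0 there, where it called 344 of all 16554 genes. Limma voom called 2, Csf2ra and Il34, where it called 3779 of all 16554 genes. Without the 3 libraries with raised neutrophil markers, edgeR again called 3 members in control and 2 in GW mice. None of those libraries came from CBD-treated mice. Microglial markers, Csf1r not among them, summed to 16396 to 22762 CPM in Ctrl-LPS, against 29000 to 38527 CPM in Ctrl-PBS libraries, with 8 of 8 lower in the mean. In GW mice they summed to 18348 to 23671 CPM with LPS, against 30480 to 36037 CPM with PBS, again with 8 of 8 lower. Monocyte markers summed to 183 to 290 CPM in GW-LPS, against 73.9 to 167 CPM in GW-PBS libraries, without overlap, though 5 of 6 were lower in the mean. Border macrophage markers summed to 184 to 297 CPM in GW-LPS, against 140 to 169 CPM in GW-PBS libraries, with 4 of 5 higher. The part of these markers in the results was not tested.

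**Figure D3:**
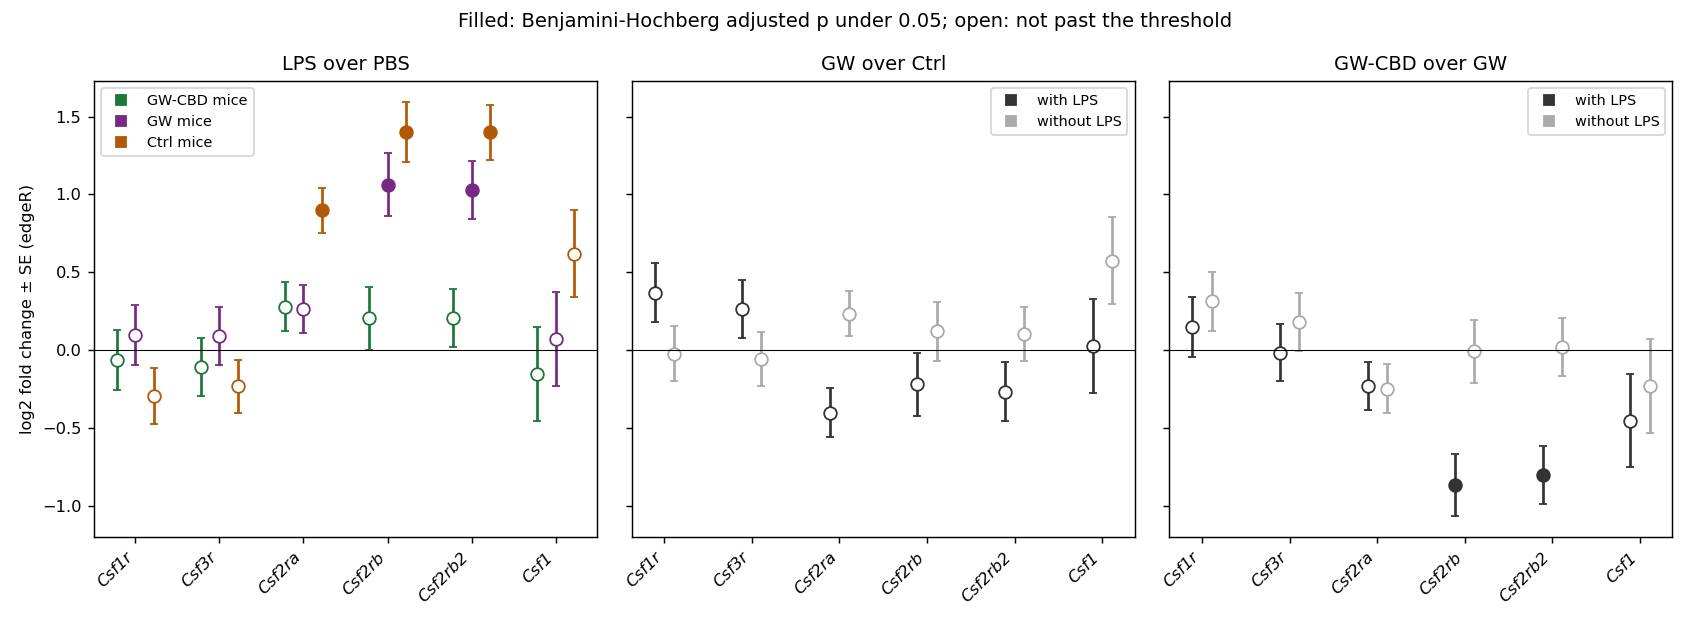
Log2 fold changes with SE of 6 members from edgeR, for LPS over PBS (left), GW over Ctrl (middle) and GW-CBD over GW (right). Filled points passed an adjusted p of 0.05. Filled points above 0 are Csf2ra, Csf2rb and Csf2rb2 in control mice and Csf2rb and Csf2rb2 in GW mice, and those below 0 are Csf2rb and Csf2rb2 for CBD with LPS.

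Csf2rb, the common beta chain gene, had 452, 356, 263 and 332 CPM in Ctrl-LPS, against 128, 122, 154 and 126 CPM in Ctrl-PBS libraries. Every LPS library lay above every PBS library, as for 12.2% of all genes tested in this direction. The mean was 351 ± 78.3 CPM with LPS and 133 ± 14.6 CPM with PBS (SD, n = 4 each). Csf2rb thus rose by 1.40 ± 0.19 on the log2 scale (SE, edgeR adjusted p = 3.24e-05). In GW mice it had 214, 429 and 261 CPM with LPS, against 129, 175, 151 and 122 CPM with PBS. These groups were again separate, as for 9.22% of all genes tested in this direction, and the log2 fold change was 1.06 ± 0.20 (edgeR adjusted p = 0.00233). GW-LPS replicate 3 stood highest, and without it the log2 fold change was 0.71 (edgeR adjusted p = 0.0238). In CBD-treated mice it had 157, 205, 152 and 148 CPM with LPS, against 145, 135 and 151 CPM with PBS. The ranges overlapped, and the log2 difference was 0.20 ± 0.20 (edgeR adjusted p = 0.782).

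Csf2rb2, the beta chain of the IL-3 receptor, followed the same course. It had 160, 129, 108 and 110 CPM in Ctrl-LPS, against 49.8, 44.5, 45.1 and 52.8 CPM in Ctrl-PBS libraries. There was no overlap, as for 12.2% of all genes tested in this direction. The log2 fold change was 1.40 ± 0.18 (SE, edgeR adjusted p = 1.49e-05). In GW mice it had 75.9, 146 and 94.7 CPM with LPS, against 50.8, 60.8, 51.9 and 43.3 CPM with PBS. All LPS libraries were higher, as for 9.22% of all genes tested. The log2 fold change was 1.03 ± 0.19 (edgeR adjusted p = 0.00161), or 0.72 (adjusted p = 0.0152) without GW-LPS replicate 3. In CBD-treated mice it had 56.6, 71.8, 56.5 and 57.5 CPM with LPS, against 54.2, 44.1 and 59.1 CPM with PBS. These overlapped, with a log2 difference of 0.21 ± 0.19 (edgeR adjusted p = 0.749).

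The ratio of Csf2rb to Csf2rb2 counts stayed between 2.40 and 3.42 in the 22 libraries, with group means from 2.72 in GW-CBD-LPS to 2.84 in GW-LPS. The genes are paralogs, and reads could be assigned to the wrong copy. Of the 150-base windows of the annotated Csf2rb2 transcripts, 3.34% also occur in Csf2rb transcripts without a mismatch, and 2.3% of the Csf2rb windows occur in Csf2rb2. With 50-base windows these shares were 18.4% and 12.3%. No source used here says how the counting treated such reads, and the split between the copies is uncertain.

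Csf2ra (chromosome 19, 61223957 to 61228429, minus strand), the GM-CSF-binding alpha chain, had 433, 377, 330 and 387 CPM in Ctrl-LPS, against 195, 191, 253 and 179 CPM in Ctrl-PBS libraries. The groups were separate, as for 12.2% of all genes tested in this direction. The means were 382 ± 42.4 CPM with LPS and 205 ± 33.3 CPM with PBS (SD, n = 4 each). The gene rose by 0.90 ± 0.14 on the log2 scale (SE, edgeR adjusted p = 0.000165). In GW mice it had 363, 215 and 289 CPM with LPS, against 220, 263, 266 and 214 CPM with PBS. The ranges overlapped, and the log2 difference of 0.26 ± 0.15 did not pass (edgeR adjusted p = 0.309). It was 0.05 without GW-LPS replicate 2 and 0.43 without GW-LPS replicate 3, and passed in neither. In CBD-treated mice it had 249, 265, 223 and 251 CPM with LPS, against 221, 183 and 206 CPM with PBS. Every LPS library was higher there by a small margin, as for 8.37% of all genes tested, and the log2 difference of 0.28 ± 0.16 did not pass in edgeR (adjusted p = 0.53). Limma voom gave 0.27 and called it (limma adjusted p = 0.0451).

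Alpha and beta chain genes did not keep a fixed proportion. The ratio of Csf2rb to Csf2ra counts was 0.591 to 0.774 in GW-CBD-LPS and 0.658 to 0.736 in GW-CBD-PBS libraries. It was 0.589, 2.00 and 0.901 in the 3 GW-LPS libraries, against 0.568 to 0.666 in GW-PBS libraries. In control mice it was 0.797 to 1.04 with LPS, against 0.608 to 0.707 with PBS. The ratio of 2.00 stood in GW-LPS replicate 3, whose Csf2ra level was the lowest of its group and whose Csf2rb level was the highest.

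**Figure D4:**
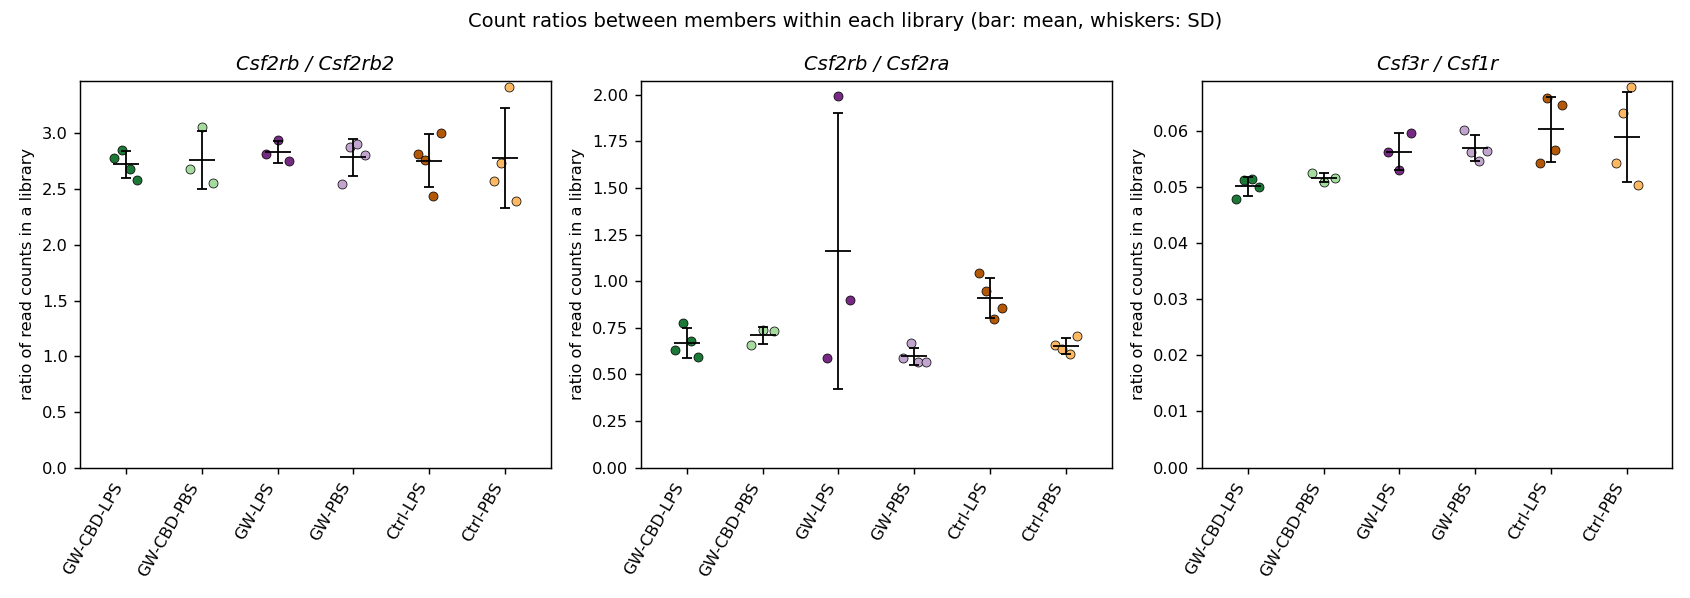
Ratios of read counts between pairs of members in each library (points), with group mean and SD, on linear axes from 0. The Csf2rb to Csf2rb2 ratio stays between 2.40 and 3.42, and the Csf2rb to Csf2ra ratio reaches 2.00 in GW-LPS replicate 3.

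Whether the LPS responses differed between arms was tested as an interaction. For GW against control mice 0 of 7 members passed in edgeR, where 0% of all genes passed. An unadjusted p under 0.05 was reached by 1 member and by 12.7% of all genes. DESeq2 and limma voom called 0 members, where they called 59 and 111 of all 16554 genes. The member with an unadjusted p under 0.05 was Csf2ra, with -0.64 ± 0.21 on the log2 scale (SE, unadjusted p = 0.00686, edgeR adjusted p = 0.353). Csf2rb had -0.34 ± 0.28 and Csf2rb2 -0.37 ± 0.26. No difference in LPS response between GW and control mice was shown for the members over all genes tested.

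For CBD-treated against other GW mice 0 of 7 passed the interaction in edgeR and 0 in DESeq2, where 0.0181% of all genes passed in edgeR. DESeq2 called 381 of all 16554 genes there. The beta chain genes had an unadjusted p under 0.05, as 15.3% of all genes did. Csf2rb had -0.86 ± 0.29 (SE, unadjusted p = 0.00697, edgeR adjusted p = 0.198) and Csf2rb2 -0.82 ± 0.26 (unadjusted p = 0.00534, adjusted p = 0.19). Limma voom with quality weights called 3 members, where it called 2287 of all 16554 genes tested. They were Csf2rb (-0.71, limma adjusted p = 0.0131), Csf2rb2 (-0.81, adjusted p = 0.00709) and Il34. The interaction of Csf2ra was 0.02 ± 0.22.

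After LPS, CBD-treated GW mice were compared directly with GW mice without CBD. Of the 7 members 2 fell and none rose in edgeR, where 1.24% of all genes fell and 2.31% passed in either direction. The values stand above: Csf2rb at 148 to 205 CPM in GW-CBD-LPS lay below its 214 to 429 CPM in GW-LPS libraries, and Csf2rb2 at 56.5 to 71.8 CPM lay below 75.9 to 146 CPM. The groups of both genes were separate by a narrow gap, as for 6.34% of all genes tested in this direction. The log2 fold change of Csf2rb was -0.86 ± 0.20 (SE, edgeR adjusted p = 0.0244) and that of Csf2rb2 -0.80 ± 0.19 (adjusted p = 0.0236). Csf2ra differed by -0.23 ± 0.15 (adjusted p = 0.562), Csf1 by -0.45 ± 0.30, Csf1r by 0.15 ± 0.19 and Csf3r by -0.01 ± 0.19, and none of these passed.

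Both calls were lost without GW-LPS replicate 3, where Csf2rb was at -0.52 (edgeR adjusted p = 0.283) and Csf2rb2 at -0.49 (adjusted p = 0.276), and without GW-CBD-LPS replicate 1, 3 or 4 (adjusted p = 0.0616 to 0.0812 over both genes). That of Csf2rb2 was also lost without GW-LPS replicate 4 (-0.85, adjusted p = 0.0508). When only these groups were fitted neither gene passed (adjusted p = 0.116 for both), nor did any other gene. The 3 libraries with raised neutrophil markers are in neither group. Marker sums of other cells differed between these groups in both directions. Neutrophil markers summed to 4.54 to 17.7 CPM in GW-CBD-LPS, against 17.9 to 272 CPM in GW-LPS libraries, with 13 of 13 lower in the mean and Camp, Elane, Cxcr2 and Ly6g at 0 in all GW-CBD-LPS libraries. Monocyte markers summed to 84.6 to 195 CPM against 183 to 290 CPM (4 of 6 lower), and border macrophage markers to 151 to 201 CPM against 184 to 297 CPM (4 of 5 lower). With the neutrophil sum as a covariate Csf2rb was at -0.68 (edgeR adjusted p = 0.0623) and Csf2rb2 at -0.70 (adjusted p = 0.0674). The neutrophil sums of these groups did not overlap, so this fit cannot separate a part of neutrophils from the group difference. Microglial markers summed to 26649 to 34792 CPM against 18348 to 23671 CPM (8 of 8 higher), astrocyte markers to 40.8 to 51.7 CPM against 24.1 to 36.9 CPM (5 of 5 higher), and endothelial markers to 25.3 to 30.8 CPM against 12.6 to 19.9 CPM (4 of 5 higher). Erythroid markers, with 5 of 5 higher, overlapped at 61.4 to 398 CPM against 65.8 to 137 CPM. The part of the other marker sums was not tested.

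**Figure D5:**
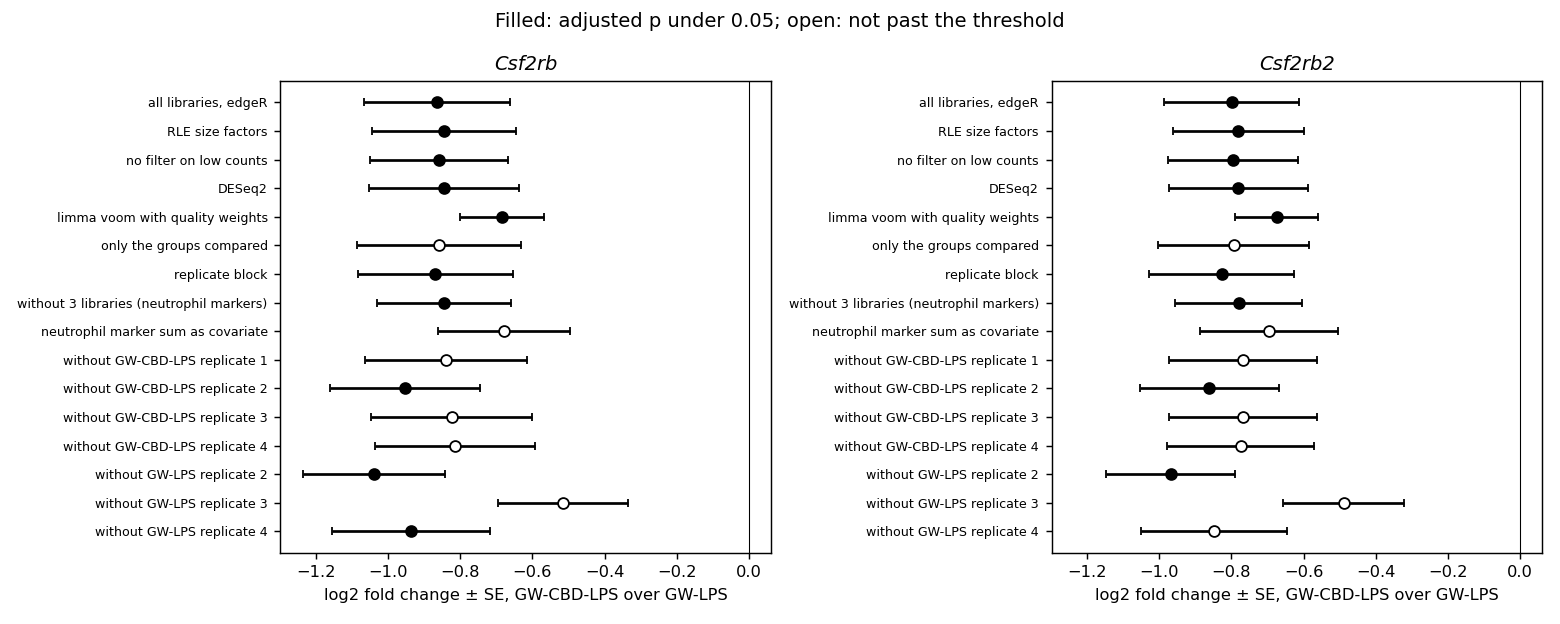
Log2 fold change with SE of Csf2rb (left) and Csf2rb2 (right) for GW-CBD-LPS over GW-LPS under each setting tried. Filled points passed an adjusted p of 0.05. Every value is below 0, and the value without GW-LPS replicate 3 is nearest to 0.

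Without LPS, and between GW and control mice after LPS, no member passed. For GW-PBS over Ctrl-PBS, 0 of 7 passed in edgeR, DESeq2 and limma voom and 0 had an unadjusted p under 0.05, where edgeR called 0% of all genes. For GW-CBD-PBS over GW-PBS, 0 of 7 passed in the same tools and 0 had an unadjusted p under 0.05, where edgeR called 0% of all genes. DESeq2 called 0 and limma voom 217 of all 16554 genes there. For GW-LPS over Ctrl-LPS, edgeR called 0% of all genes, while DESeq2 called 147 and limma voom 324 of all 16554 genes. Of the members 0 of 7 passed in these tools, and 1 had an unadjusted p under 0.05 in edgeR. It was Csf2ra, with a log2 difference of -0.40 ± 0.16 (SE, edgeR adjusted p = 0.324). Unadjusted, 13.7% of all genes passed there.

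The order of the groups for Csf2rb, Csf2rb2 and Csf2ra was led by Ctrl-LPS and GW-LPS. For Csf2rb the means were 351, 301, 165, 144, 144 and 133 CPM in Ctrl-LPS, GW-LPS, GW-CBD-LPS, GW-PBS, GW-CBD-PBS and Ctrl-PBS. Only GW-LPS and GW-CBD-LPS were neighbours without overlap. For Csf2rb2 the means were 127, 106, 60.6, 52.5, 51.7 and 48.0 CPM in Ctrl-LPS, GW-LPS, GW-CBD-LPS, GW-CBD-PBS, GW-PBS and Ctrl-PBS, with the same single gap. For Csf2ra the means were 382, 289, 247, 241, 205 and 203 CPM in Ctrl-LPS, GW-LPS, GW-CBD-LPS, GW-PBS, Ctrl-PBS and GW-CBD-PBS, and all neighbours overlapped.

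Csf3r (chromosome 4, 126024550 to 126044440, plus strand), the G-CSF receptor gene, had 597, 692, 566 and 434 CPM in GW-CBD-LPS and 652, 573 and 624 CPM in GW-CBD-PBS libraries. It had 597, 560 and 578 CPM in GW-LPS, and 417, 740, 534 and 481 CPM in GW-PBS libraries. In control mice it had 339, 557, 555 and 473 CPM with LPS, and 605, 476, 606 and 572 CPM with PBS. Neighbouring groups overlapped throughout the order of the means, from 616 ± 40.4 CPM in GW-CBD-PBS (SD, n = 3) to 481 ± 103 CPM in Ctrl-LPS (n = 4). Every GW-LPS library lay above every Ctrl-LPS library by a narrow gap, as for 6.29% of all genes tested, with a log2 difference of 0.27 ± 0.18 (edgeR adjusted p = 0.492). Its log2 differences over the 9 contrasts ran from -0.23 to 0.32, with a smallest edgeR adjusted p of 0.367. Over all libraries Csf3r was highest in GW-PBS replicate 2 (740 CPM), whose neutrophil markers summed to 359 CPM. Replicate 3 of Ctrl-PBS, with the highest marker sum, had the highest Csf3r level of its group, 606 CPM. Replicate 1 of Ctrl-PBS, whose marker sum was 66.6 CPM, had 605 CPM. Replicate 1 of Ctrl-LPS, with the second highest sum, had the lowest Csf3r level of all 22 libraries. GW-PBS replicate 1, also with raised neutrophil markers, had the lowest of its group, 417 CPM. Whether neutrophils contributed to the Csf3r level was not tested.

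Csf3r stayed near a fixed proportion of Csf1r. The ratio of their counts ran from 0.0478 to 0.0679 over the 22 libraries. The highest ratio stood in Ctrl-PBS replicate 3, the library with the highest neutrophil marker sum. Of the other libraries with raised neutrophil markers, GW-PBS replicate 1 had the highest ratio of its group (0.0602). Ctrl-LPS replicate 1 had the lowest ratio of its group (0.0542). It was 0.0478 to 0.0514 in GW-CBD-LPS, against 0.053 to 0.0597 in GW-LPS libraries, and 0.0508 to 0.0525 in GW-CBD-PBS, against 0.0546 to 0.0602 in GW-PBS libraries. Both pairs were separate, with the lower ratios in CBD-treated mice. As levels of single genes, 12.8% of all genes tested were separate in either direction with LPS and 8.19% without LPS. No such share was computed for ratios of other gene pairs, and no test was made of these ratios.

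Most other ligands and receptors of the family had few or no counts. Csf2, Il3 and Il5, which encode GM-CSF, IL-3 and IL-5, had 0 counts in all 22 libraries. Csf3, the G-CSF gene, had counts in 4 libraries, all given LPS, with 17 in GW-LPS replicate 3 and 318, 2 and 5 in Ctrl-LPS replicates 1, 3 and 4. Ctrl-LPS replicate 1 is a library with raised neutrophil markers. Il3ra, the IL-3 receptor alpha chain gene, had 135 to 424 counts (3.45 to 12.6 CPM), and Il5ra had 0 to 34. Of these 6 genes 2, Il3ra and Il5ra, were tested, and 0 passed in any contrast in edgeR, with at most 1 at an unadjusted p under 0.05 in a contrast. Other receptors of IL-34 were low as well, with 2 to 59 counts for Ptprz1 and 0 to 42 for Sdc1.

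The GM-CSF and G-CSF receptors signal through JAK kinases and STAT factors. Of 13 genes of that signalling 3 rose and none fell with LPS in control mice, where 10.8% of all genes rose (median log2 fold change 0.35, against -0.02 for all genes). Socs3, a feedback inhibitor of cytokine receptors, stood at 1483 ± 270 CPM in Ctrl-LPS and 224 ± 42.7 CPM in Ctrl-PBS libraries. The transcription factor gene Stat3 rose by 1.14 ± 0.22 and the survival gene Mcl1 by 0.70 ± 0.17 on the log2 scale (SE). In GW mice 4 rose and none fell, where 4.45% of all genes rose. They were Stat3 (1.32 ± 0.23), Mcl1 (1.00 ± 0.18), Socs3 (2.02 ± 0.30) and the kinase gene Jak1 (0.76 ± 0.21). In CBD-treated mice 0 passed in edgeR and DESeq2, and 2 had an unadjusted edgeR p under 0.05, against 11% of all genes. Limma voom called 2, where it called 3779 of all 16554 genes. After LPS, Socs3 was lower in CBD-treated mice (592 ± 234 CPM, n = 4) than in GW mice without CBD (1333 ± 367 CPM, n = 3), and Mcl1 fell by 0.81 ± 0.18. These calls were lost without GW-LPS replicate 3 (edgeR adjusted p = 0.274 for Socs3 and 0.247 for Mcl1). With 1 library left out in turn, Socs3 passed in 2 of 7 fits and Mcl1 in 4 of 7, and Jak1 in GW mice in 2 of 7.

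Of 21 signalling genes next to CSF1R, 2 rose and 1 fell with LPS in control mice, where 20.4% of all genes passed in either direction. Their median log2 fold change was -0.06. The PI3-kinase subunit gene Pik3r1 rose by 0.48 ± 0.13 on the log2 scale (SE), and the kinase gene Src fell by 0.67 ± 0.19. In GW mice 1 rose and 1 fell, where 9.53% of all genes passed. An unadjusted p under 0.05 was reached by 8 of 21 there, against 24.3% of all genes. Limma voom called 6, where it called 3809 of all 16554 genes. Akt1 rose by 0.59 ± 0.18 and Src fell by 0.75 ± 0.21, which passed in 1 and 3 of 7 fits with 1 library left out. Without the 3 libraries with raised neutrophil markers, Pik3r1 and Src in control mice and Akt1 and Src in GW mice no longer passed. In CBD-treated mice 0 of 21 passed with LPS in edgeR and DESeq2, and 1 had an unadjusted edgeR p under 0.05, against 11% of all genes. Limma voom called 6, where it called 3779 of all 16554 genes. For CBD after LPS 0 passed in edgeR, and 3 had an unadjusted p under 0.05, as 14.4% of all genes did. DESeq2 called 1 and limma voom 3, where they called 900 and 3512 of all 16554 genes.

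Among 10 regulators of Csf1r transcription and macrophage identity, 2 rose and 2 fell with LPS in control mice, where 20.4% of all genes passed in either direction. The inflammatory factor gene Cebpb stood at 955 ± 309 CPM in Ctrl-LPS and 194 ± 70.9 CPM in Ctrl-PBS libraries (log2 fold change 2.30 ± 0.28), and Runx1 rose by 0.64 ± 0.15. Cebpa fell by 0.58 ± 0.16 and Irf8, a lineage factor gene of macrophages, fell by 0.36 ± 0.10. The call of Irf8 was lost without Ctrl-LPS replicate 4, Ctrl-PBS replicate 1 or Ctrl-PBS replicate 4 (edgeR adjusted p = 0.0516 to 0.0582), and that of Cebpa without Ctrl-LPS replicate 1 (adjusted p = 0.0522). Without the 3 libraries Cebpa no longer passed (edgeR adjusted p = 0.0693). In GW mice Runx1 (0.64 ± 0.16) and Cebpb (1.12 ± 0.28) rose, where 4.45% of all genes rose. Both calls were lost without GW-LPS replicate 3. That of Cebpb was also lost without GW-PBS replicate 3 (edgeR adjusted p = 0.0528), and that of Runx1 without the 3 libraries (adjusted p = 0.0542). In CBD-treated mice 0 of 10 passed with LPS in edgeR and DESeq2. Limma voom called 3, all lower, where it called 3779 of all 16554 genes. For CBD after LPS, Runx1 fell by 0.88 ± 0.16 (56.4 ± 6.36 CPM in GW-CBD-LPS and 104 ± 32.0 CPM in GW-LPS libraries). Of all genes 1.24% fell there. The call of Runx1 was lost without GW-LPS replicate 3 (-0.60, edgeR adjusted p = 0.0611). DESeq2 called 2 lower for CBD after LPS, and limma voom 1 higher and 4 lower. They called 900 and 3512 of all 16554 genes there.

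Genes with the most similar pattern were ranked for each member by Pearson correlation of log2 CPM over the 22 libraries, among the 9310 genes whose mean reached 5 CPM. The libraries share LPS treatment, so these values are descriptions. For Csf2rb they were Sema6b (r = 0.979), Map3k8 (0.975) and B4galnt1 (0.974), and for Csf2rb2 Sema6b (0.975), Utp4 (0.965) and B4galnt1 (0.964). For Csf2ra they were Mfsd13a (0.902), Zbp1 (0.893) and Ifi204 (0.885). For Csf1r they were Usp8 (0.977), Golm1 (0.975) and Abcc3 (0.966), and for Csf3r Ube3b (0.943), Slc45a4 (0.941) and Abca9 (0.934). For Csf1 they were Clic4 (0.849), Itga5 (0.836) and Mfsd12 (0.816). The values for Il34, led by Ccl8 (0.742), rest on 0 to 16 counts a library.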

How the data were processed

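Polyadenylated RNA of sorted microglia was sequenced as 150 bp read pairs from stranded libraries, per the labels' protocols. The deposited table holds whole-number counts of reads per gene, which the authors made by alignment to GRCm38 (mm10), per the labels and the submitters' processing notes. Neither names the software that aligned or counted the reads, nor the gene annotation. Coordinates and exon lengths came from GENCODE M21 on GRCm38.

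Counts were tested with edgeR 4.0.16 in R 4.3.3 (quasi-likelihood test, TMM factors, filterByExpr). One model with 6 group means covered the 22 libraries, and 16554 genes passed the filter, all 7 members among them. An adjusted p is Benjamini-Hochberg over all genes tested, two-sided, with a threshold of 0.05. Log2 CPM used a prior count of 2. DESeq2 1.42.0 and limma 3.58.1 were alternatives. Tests were tried on simulated data. Figures used matplotlib 3.10.9. Library numbers are those of the library names. Deviations of same-numbered libraries from their group means correlated at a median of 0.0141 over 51 pairs, against 0.0016 for other pairs. The values ran from -0.285 to 0.315, with 11 over 0.1. A median over all pairs cannot show whether some libraries share a batch, and the main fit used no pairing. Counting error sets the intervals of low counts only.

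The members and lists were chosen with earlier results of these data known. All 7 members are named. Of each list, the genes past the threshold are named, at most 4 for each contrast (1 such gene is not reported here), and for each member the 3 genes of most similar pattern.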

Additional observations from a re-analysis of the deposited data

Results flagged for a closer look

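In groups of 4 libraries, a library was singled out when its gap to the next exceeded a share of the group's range that chance exceeds in about 1 in 20 groups, and 28 groups of values were examined. Csf2rb in GW-CBD-LPS replicate 2 stood at 205 CPM, and the other 3 libraries at 148 to 157 CPM. Csf2rb2 in the same library stood at 71.8 CPM, and the others at 56.5 to 57.5 CPM. Il34 in GW-CBD-LPS replicate 4 stood at 0.582 CPM, which is 16 counts.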

How the results depend on the processing

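Members called held in all 9 contrasts with RLE size factors, without a filter on low counts, with DESeq2, with the replicate block, and when the 3 libraries of raised neutrophil markers were left out, which come from GW-PBS, Ctrl-LPS and Ctrl-PBS only. For CBD with LPS, members called were 0 in place of 2 when only the groups compared were fitted, 0 with the neutrophil marker sum as covariate, and 0 to 2 with 1 library left out. Limma voom called 2 members for LPS in GW-CBD mice, and 3 for the CBD by LPS interaction, against 0 in edgeR for both. Of all 16554 genes it called 3779 and 2287 there. It called 4 members for LPS in Ctrl mice and 3 for CBD with LPS, against 3 and 2 in edgeR. Of all genes it called 4494 and 3512 there. Fitted alone, the control groups gave 4 members, with 2700 of 14442 genes called. The causes were not tested. Left out in turn, no library changed the members called in the other contrasts. Over all genes, CBD with LPS gave 382 calls in edgeR, 900 in DESeq2, 3512 in limma voom, 672 without the 3 libraries and 0 when only the groups compared were fitted.

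The differences that changed sign were all small and none passed the threshold. With limma voom they were Csf1 (-0.28, LPS in GW mice; -0.068, GW with LPS; 0.12, interaction of CBD and LPS), Csf1r (0.018, LPS in GW-CBD mice), Csf2rb (0.024, CBD without LPS), Csf3r (0.024, CBD with LPS) and Csf2ra (-0.0080, interaction of CBD and LPS). Without the 3 libraries they were Csf1 (-0.15), Csf1r (-0.045) and Csf3r (-0.034) for LPS in GW mice, Csf1r (0.059) and Csf3r (0.081) for GW without LPS, and Csf3r (0.0010) for CBD with LPS. With the replicate block they were Csf1 (-0.025, GW with LPS), Csf2rb (0.014, CBD without LPS) and Csf3r (0.028, CBD with LPS). Csf2rb for CBD without LPS was also at 0.00058 with RLE, 0.011 without the filter, 0.00057 with DESeq2, 0.0036 with only those groups and 0.080 with the covariate. Csf3r for CBD with LPS was 0.0021 with RLE and 0.0022 with DESeq2.

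With 1 library left out, LPS in GW mice ranged from -0.046 to 0.29 for Csf1r, -0.035 to 0.28 for Csf3r and -0.15 to 0.49 for Csf1. LPS in GW-CBD mice ranged from -0.16 to 0.049 for Csf1r and -0.22 to 0.0053 for Csf3r. GW without LPS ranged from -0.21 to 0.097 for Csf1r and -0.24 to 0.043 for Csf3r, and GW with LPS from -0.061 to 0.14 for Csf1. CBD without LPS ranged from -0.080 to 0.099 for Csf2rb, -0.055 to 0.13 for Csf2rb2 and -0.42 to 0.19 for Csf1. CBD with LPS ranged from -0.093 to 0.097 for Csf3r, and the interaction of CBD and LPS from -0.17 to 0.21 for Csf2ra.

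Low counts limited the tests of Il34, with at most 16 counts a library. Whether same-numbered libraries share a batch is not known, and the replicate block changed no member's call.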
